A study of Mus musculus with 9 samples.

Results

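Eicosanoids are the lipid mediators that cells make from arachidonic acid, and 10 genes of their synthesis and breakdown were followed here: Pla2g4a, Ptgs1, Ptgs2, Ptgis, Tbxas1, Ptges, Hpgd, Alox5, Alox5ap and Alox12. They were taken by gene name from the 46078 genes of a read count table, and each matched 1 row. RNA-seq was performed on endothelial cells (ECs) sorted from the bone marrow (BM) of B6 mice labelled wild type, with no treatment given, and the ECs were gated as CD45-Ter119-CD31+. Within that label the library titles differ, as Sca-1+ 13 and Sca-1- 14 and 22 carry CD452, Sca-1- 10 carries a shortened form of it, Sca-1+ 15 and 19 and Sca-1- 8 and 16 carry wt with a number, and Sca-1+ 7 carries neither. There were 4 libraries of Sca-1+ cells, whose labels end in 7, 13, 15 and 19, and 5 libraries of Sca-1- cells, whose labels end in 8, 10, 14, 16 and 22. Sca-1, encoded by Ly6a, is the surface protein used in the study to mark arteriolar against sinusoidal ECs, and its Sca-1 high and Sca-1 low cells carry the labels Sca-1+ and Sca-1-. Age, sex and pooling of animals were not given in the labels.

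Arachidonic acid is released from membrane phospholipids by cytosolic phospholipase A2. Cyclooxygenases turn it into prostaglandin H2, from which prostacyclin synthase makes prostacyclin, thromboxane synthase makes thromboxane A2 and prostaglandin E synthases make prostaglandin E2, whereas lipoxygenases turn it into leukotrienes and hydroxylated fatty acids. Endothelium is classically known for prostacyclin, which keeps platelets quiet and dilates vessels, and platelets and their parent megakaryocytes for thromboxane and the product of the platelet-type 12-lipoxygenase.

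Total counts were 23058385 to 24657204 per Sca-1+ library and 21581653 to 25959818 per Sca-1- library, and 3 counts, taken as the floor, corresponded to 0.0995 to 0.209 CPM (counts divided by library size, with TMM factors). Reads fell on 26424 genes, and edgeR tested the 15937 that were not too low. Of these 7137 (44.8%) had an adjusted p under 0.05, 3721 (23.3%) higher and 3416 (21.4%) lower in Sca-1+ cells. Ly6a was 1131 ± 186 CPM in Sca-1+ and 0.678 ± 0.523 CPM in Sca-1- libraries (SD, n = 4 and 5). The labelled cell type was less clear in the Sca-1- fraction: 15 general endothelial markers summed to 1.503 to 2.05% of the counts in Sca-1+ and 0.121 to 0.158% in Sca-1- libraries, with 14 of the 15 higher in Sca-1+, and Esam, the exception, made up 27.4 to 87.2% of that sum in the Sca-1- libraries. Pecam1 itself, which encodes the CD31 of the gate, was 1397 ± 259 against 835 ± 612 CPM and did not pass the test (adjusted p = 0.247). In contrast, 14 megakaryocyte markers such as Ppbp, Pf4 and Itga2b summed to 0.00458 to 0.0110% in Sca-1+ and 2.80 to 5.57% in Sca-1- libraries, and all 14 were lower in Sca-1+. The fractions are therefore called by their sort labels and not by a cell type. The running numbers that open the labels form separate series in the 2 fractions, so that fraction and any batch behind those numbers cannot be told apart.

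The promoters of 5 genes are shown, as 4 of them were lower and Ptges was higher in Sca-1+ cells. RefSeq windows of the GRCm38.p6 build, 250 bases that end just before the annotated start, matched 8 of the 10 genes (9 windows, with 2 for Pla2g4a, and none for Ptgis and Alox5ap). Capitals mark letters that match a GATA motif (AGATAA or AGATAG, or either with T as its first letter) or an ETS motif (AGGAAG or CGGAAG) on either strand. No GATA match overlapped an ETS match.
Pla2g4a promoter, chr1:149922440-149922689, minus strand: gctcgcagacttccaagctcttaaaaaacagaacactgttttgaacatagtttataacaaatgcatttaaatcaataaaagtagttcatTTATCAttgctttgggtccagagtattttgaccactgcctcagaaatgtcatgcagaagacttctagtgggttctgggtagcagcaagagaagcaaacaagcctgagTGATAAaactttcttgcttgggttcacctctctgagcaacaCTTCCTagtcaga
Ptgs1 promoter, chr2:36230176-36230425, plus strand: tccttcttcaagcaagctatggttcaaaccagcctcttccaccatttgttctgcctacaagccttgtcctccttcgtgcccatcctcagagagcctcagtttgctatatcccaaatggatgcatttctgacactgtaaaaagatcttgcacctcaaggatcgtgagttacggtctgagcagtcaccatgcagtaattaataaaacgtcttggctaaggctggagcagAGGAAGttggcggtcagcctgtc
Tbxas1 promoter, chr6:38918736-38918985, plus strand: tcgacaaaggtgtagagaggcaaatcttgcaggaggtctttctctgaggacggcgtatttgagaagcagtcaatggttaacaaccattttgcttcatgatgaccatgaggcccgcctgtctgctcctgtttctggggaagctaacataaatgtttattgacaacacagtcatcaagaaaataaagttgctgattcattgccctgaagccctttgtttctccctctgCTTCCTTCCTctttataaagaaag
Alox12 promoter, chr11:70255371-70255620, minus strand: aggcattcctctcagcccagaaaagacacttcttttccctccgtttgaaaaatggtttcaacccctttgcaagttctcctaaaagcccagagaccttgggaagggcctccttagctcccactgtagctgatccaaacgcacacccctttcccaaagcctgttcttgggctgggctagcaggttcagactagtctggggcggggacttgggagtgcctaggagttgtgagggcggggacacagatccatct
Ptges promoter, chr2:30903298-30903547, minus strand: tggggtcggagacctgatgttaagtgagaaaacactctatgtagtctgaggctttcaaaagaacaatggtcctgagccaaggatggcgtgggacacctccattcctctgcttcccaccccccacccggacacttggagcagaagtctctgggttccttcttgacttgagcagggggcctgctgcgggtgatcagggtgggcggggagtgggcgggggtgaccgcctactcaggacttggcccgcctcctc
ETS letters were found in 5 of the 9 windows (Ptgs1, Ptgs2, Tbxas1, Hpgd and 1 of Pla2g4a), beside 39.2% of all 32851 promoter windows. GATA letters were found in 2 of the 9 (Alox5 and the Pla2g4a window shown, which has both), beside 26.5% of all windows. The other Pla2g4a window, chr1:149961291-149961540, lies just upstream of the whole gene and held neither motif. The windows shown for Pla2g4a, Tbxas1 and Ptges lie inside the gene bounds given below, each before a start within them. In the Ptgs1 and Tbxas1 windows and the Pla2g4a window shown the ETS letters lay within 24 bases of the start. In Tbxas1 and Hpgd a pair of ETS matches overlapped. The Alox12 and Ptges windows shown, which belong to genes with opposite differences, held neither motif. These matches describe letters and not binding.

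All 10 genes passed the filter. In Sca-1+ cells 8 were lower, 1 (Ptges) was higher and 1 (Ptgs2) did not pass the test, beside the 21.4% lower and 23.3% higher among all genes tested. The median log2 fold change of the 10 genes (Sca-1+ over Sca-1-) was -4.77, against 0.07 over all genes. The Sca-1+ and Sca-1- ranges did not overlap for the 9 genes that passed, beside 18.8% of all genes with every Sca-1- library above and 24.7% with every Sca-1+ library above. In bulk samples such as these, fewer cells of a type and less RNA per cell cannot be told apart.

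**Figure D1:**
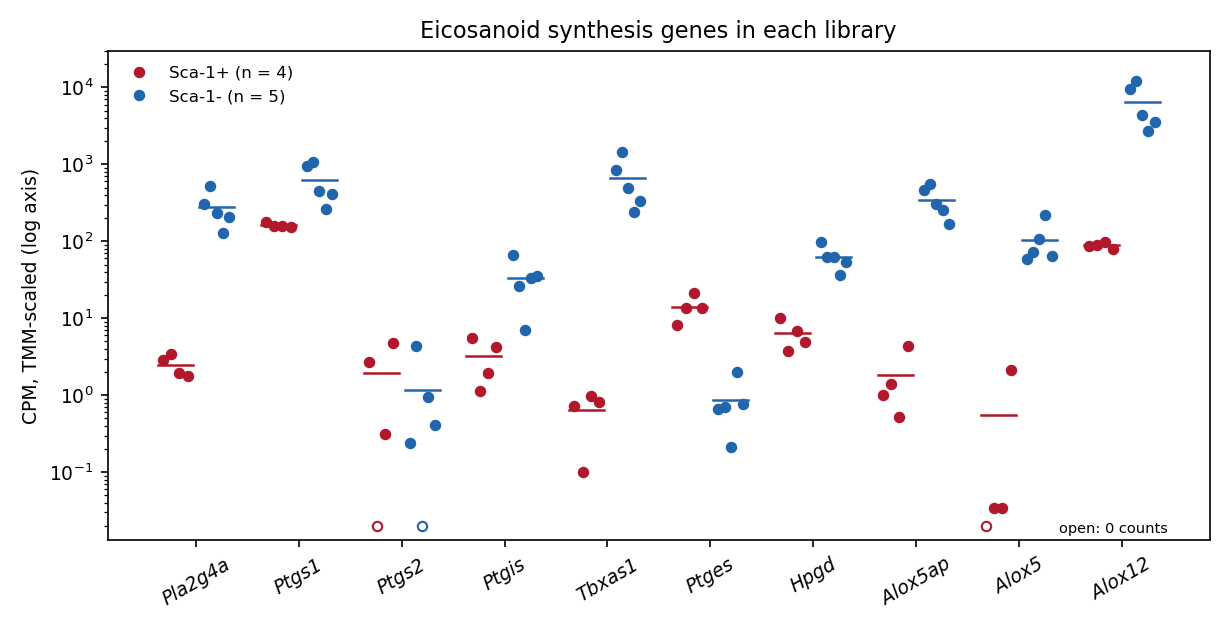
CPM of the 10 genes in each library (log axis), in the order of the pathway; filled points are libraries, bars are means, and open points at the base had 0 counts. Only Ptges has its Sca-1+ libraries (8.31 to 21.1 CPM) above its Sca-1- libraries (0.212 to 1.99 CPM) without overlap, and Ptgs2 overlaps between the fractions at 0 to 4.75 CPM.

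Pla2g4a (chr1:149829618-149961290, minus strand, GRCm38) encodes cytosolic phospholipase A2, which frees arachidonic acid for the enzymes downstream. It was 2.86, 3.47, 1.93 and 1.78 CPM in Sca-1+ libraries 7, 13, 15 and 19, and 304, 518, 237, 128 and 206 CPM in Sca-1- libraries 8, 10, 14, 16 and 22. Every Sca-1- library was thus far above every Sca-1+ library, and the highest, library 10, was also the highest in megakaryocyte markers. It was 111-fold lower in Sca-1+ (log2 fold change -6.79, SE 0.52, adjusted p = 1.78e-05).

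Ptgs1 (chr2:36230426-36252272, plus strand) encodes the constitutive cyclooxygenase, COX-1. Its levels were tightly grouped in Sca-1+ cells at 178, 157, 159 and 156 CPM and spread in Sca-1- cells at 941, 1070, 446, 266 and 411 CPM. It was the member with the smallest difference among those that were lower in Sca-1+, with a log2 fold change of -1.95 (SE 0.42, adjusted p = 0.00363), 3.86-fold lower. An opposite-strand gene, Gm43621, overlaps its exons, and reads of the 2 cannot be told apart where counting ignores strand, which the sources used here do not state.

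Ptgs2 (chr1:150100031-150108227, plus strand) encodes COX-2, the cyclooxygenase that inflammatory signals raise. It was 2.69, 0, 0.310 and 4.75 CPM in Sca-1+ and 0.240, 4.33, 0, 0.961 and 0.407 CPM in Sca-1- libraries. The fractions overlapped, each with 1 library at 0 counts. The log2 fold change of 0.73 (SE 1.46, adjusted p = 0.714) had a 95% interval from -2.14 to 3.59, and it turned to -0.23 without Sca-1+ library 19. A difference was not detectable at this level.

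Ptgis (chr2:167191805-167240604, minus strand) encodes prostacyclin synthase, the enzyme for which endothelium is best known in this pathway. It was 5.62, 1.12, 1.97 and 4.29 CPM in Sca-1+ and 66.4, 26.0, 7.04, 33.1 and 35.2 CPM in Sca-1- libraries. Sca-1+ cells were thus low throughout, and the closest libraries of the fractions, Sca-1+ 7 and Sca-1- 14, were 5.62 and 7.04 CPM. Prostacyclin synthase was 10.3-fold lower in Sca-1+ (log2 fold change -3.37, SE 0.68, adjusted p = 0.00267). The opposite-strand gene 1110018N20Rik, with 1 to 168 counts per library and its highest counts in Sca-1+ libraries, overlaps exons of Ptgis, so its share of the Ptgis reads is uncertain.

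As a share of the counts Ptgis was highest in Sca-1- libraries 8, 22 and 16, in that order, and lowest in 10 and 14. The 7 stromal markers, which summed to 2.81, 0.541, 0.325, 2.21 and 2.04% of the counts in libraries 8, 10, 14, 16 and 22, were highest in the same 3 libraries. Most counts of that list were of Col1a1 and Col1a2 in each of these libraries (458919 and 217435 in library 8, with Dcn next at 9230). By counts Pdgfra, Lepr, Dcn and Lum were also highest in those 3 libraries, whereas Cxcl12 was highest in library 14 (6487 counts). The collagen genes of that list, Col1a1 and Col1a2, were lower in Sca-1+ cells, Cxcl12 and Lepr were higher, and Pdgfra, Dcn and Lum did not pass the test. A list of 8 osteoblast genes chosen after these values were seen (Bglap, Bglap2, Sp7, Ibsp, Alpl, Dmp1, Phex and Runx2) summed to 0.0607 to 0.333% in Sca-1- and 0.0229 to 0.0950% in Sca-1+ libraries, with 4 of 8 lower in Sca-1+ and the same 3 libraries (8, 16 and 22) highest in Sca-1-. Most of that sum in Sca-1- libraries was of Ibsp and Dmp1. Alpl had the opposite sign without passing the test (log2 fold change 2.07), at 140 to 298 CPM in Sca-1+ and 1.70 to 131 CPM in Sca-1- libraries. The part of collagen-expressing cells in the Ptgis difference was not tested. Over the 9 libraries, the tested genes whose log2 CPM was most like that of Ptgis were Col11a1 (Pearson r = 0.986) and Col1a2 (r = 0.985), both fibrillar collagens. The libraries of a fraction share most of such a correlation.

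Tbxas1 (chr6:38875404-39084585, plus strand) encodes thromboxane synthase. In Sca-1+ cells it was 0.715, 0.102, 0.966 and 0.811 CPM, from 3 to 28 counts, and in Sca-1- cells 840, 1435, 493, 239 and 331 CPM. It was under 1 CPM in every Sca-1+ library and 239 CPM or more in every Sca-1- library. The log2 fold change was -10.00 (SE 0.92, adjusted p = 3.96e-05), 1023-fold lower in Sca-1+. The opposite-strand gene Gm42962 overlaps its exons.

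Ptges (chr2:30889471-30929863, minus strand) encodes the inducible microsomal prostaglandin E synthase. It was 8.31, 13.8, 21.1 and 13.7 CPM in Sca-1+ and 0.660, 0.698, 0.212, 1.99 and 0.773 CPM in Sca-1- libraries. All Sca-1+ libraries were above all Sca-1- libraries, and the log2 fold change was 4.01 (SE 0.59, adjusted p = 4.32e-04), 16.2-fold higher in Sca-1+. The difference depended on scaling, since it was 0.55 (adjusted p = 0.486) when libraries were scaled to the summed general endothelial genes and -0.45 (adjusted p = 0.482) when Esam was left out of that sum. As a share of that sum Ptges was 0.0493 to 0.134% in Sca-1+ and 0.0157 to 0.180% in Sca-1- libraries, which overlap.

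Hpgd (chr8:56294585-56321043, plus strand) encodes 15-hydroxyprostaglandin dehydrogenase, which inactivates prostaglandins. It was 10.1, 3.81, 6.93 and 4.98 CPM in Sca-1+ and 97.9, 62.9, 61.8, 36.1 and 54.1 CPM in Sca-1- libraries. By CPM library 8 was the highest and 16 the lowest of the Sca-1- libraries. As a share of the counts 8 was again highest, but 10 was lowest (0.00365%, against 0.00419% in 16). Hpgd was 9.68-fold lower in Sca-1+ (log2 fold change -3.28, SE 0.39, adjusted p = 1.34e-04).

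The 5-lipoxygenase pair came next. Alox5ap (chr5:149264767-149288153, plus strand) encodes FLAP, which presents arachidonic acid to 5-lipoxygenase, and was 1.02, 1.39, 0.517 and 4.32 CPM in Sca-1+ and 460, 552, 308, 252 and 169 CPM in Sca-1- libraries. Sca-1+ library 19 was the highest of its fraction but still far under the lowest Sca-1- library. The log2 fold change was -7.59 (SE 0.77, adjusted p = 5.79e-05), 192-fold lower, and the opposite-strand gene Gm19719 overlaps exons of Alox5ap.

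Alox5 (chr6:116410077-116461178, minus strand) encodes 5-lipoxygenase, which starts leukotriene synthesis. It had 0, 1, 1 and 56 counts in Sca-1+ libraries 7, 13, 15 and 19 (0, 0.0340, 0.0345 and 2.16 CPM), against 59.1, 72.6, 107, 223 and 64.9 CPM in Sca-1- libraries. A single library, 19, thus held nearly all its Sca-1+ reads. The log2 fold change was -7.58 (SE 1.36, adjusted p = 0.00133), and without library 19 the other Sca-1+ libraries were at the floor, at least 1027-fold lower with the floor taken as the mean of 3 counts per library. Library 19 was also the highest of the Sca-1+ libraries in 14 granulocyte and monocyte markers (0.1004% of its counts, against 0.0245 to 0.0294% in the others) and in 8 mast cell and basophil markers (0.0279%, against 0.0130 to 0.0155%). Such cells carry CD45, which the gate selects against. Ptprc, which encodes CD45, had 24, 0, 0 and 66 counts in Sca-1+ libraries 7, 13, 15 and 19. The part of such cells in the Alox5 reads was not tested. In each Sca-1+ library most counts of the mast cell and basophil list were of Gata2 (4301 in library 19, with Prss34 next at 970). Most counts of the granulocyte and monocyte list in libraries 7, 13 and 15 were of Cd14 (4580, 6625 and 5652), which had 2416 in library 19. Ngp led that list in library 19 at 6183 counts, against 18, 13 and 68. Elane, Mpo, Prtn3 and Ctsg were instead highest in library 7.

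Alox12 (chr11:70241457-70255353, minus strand) encodes the platelet-type 12-lipoxygenase, and it was the most abundant of the 10 genes in Sca-1- cells. Its levels were 87.8, 88.9, 98.99 and 78.6 CPM in Sca-1+ and 9483, 11997, 4415, 2720 and 3568 CPM in Sca-1- libraries. It was 72.6-fold lower in Sca-1+, with a log2 fold change of -6.18 (SE 0.60, adjusted p = 4.73e-05). By counts it ranked from 10 to 20 among all genes in Sca-1- libraries, where it took 0.316 to 0.696% of the counts, and from 1753 to 2303 in Sca-1+ libraries. Together the 10 genes held 0.453 to 0.914% of all counts of a Sca-1- library and 0.0305 to 0.0362% of those of a Sca-1+ library.

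TMM factors ran from 0.581 to 1.16 among the Sca-1- libraries, so genes were set beside markers as percent of counts, without these factors. The megakaryocyte markers were highest in library 10 and lowest in 16 (5.57, 5.36, 4.84, 3.75 and 2.80% in libraries 10, 8, 14, 22 and 16). Tbxas1 and Alox12 had that same order, and Ptgs1 and Pla2g4a differed from it except that 16 was lowest. Alox12 was 0.696% of the counts in library 10 and 0.316% in library 16. The part of megakaryocytes in the differences of these genes was not tested. Alox5 was highest in libraries 16 (0.0259% of the counts) and 14 (0.0106%). These were also the highest in mast cell and basophil markers (1.64 and 0.238%, against 0.0627 to 0.127% in the others). In libraries 8, 10 and 22 most counts of that list were of Gata2 (26144 in library 10, with Prss34 next at 2024). Libraries 16 and 14 were the highest in general leukocyte markers too (0.300 and 0.175%), where library 22 came next, as it did for Alox5. The part of any of these cells in Alox5 was not tested. All 8 mast cell and basophil markers and all 14 megakaryocyte markers were lower in Sca-1+ cells, as were 7 of 9 general leukocyte markers (0.0144 to 0.0239% in Sca-1+ and 0.120 to 0.300% in Sca-1-), while 6 of 9 smooth muscle and pericyte markers were higher (0.0261 to 0.162% against 0.00107 to 0.00581%). Of 8 erythroid markers 5 were lower in Sca-1+ and none was higher. Of 14 granulocyte and monocyte markers 1 was higher and 3 were lower, and no list had a marker at the floor in every library of a fraction.

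**Figure D2:**
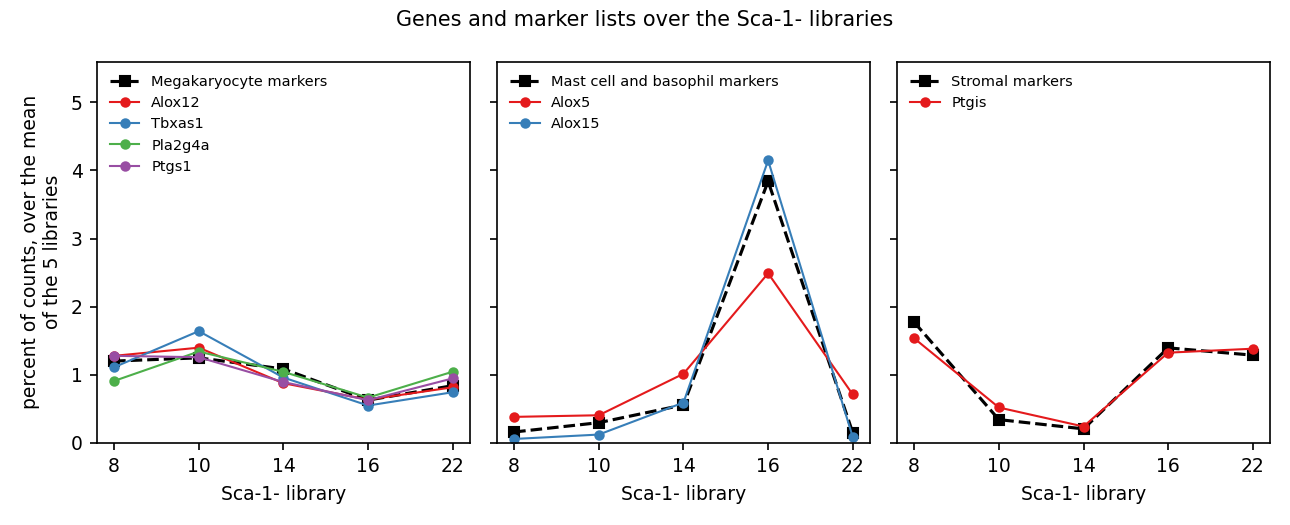
Levels of 4 genes beside megakaryocyte markers, of Alox5 and Alox15 beside mast cell and basophil markers, and of Ptgis beside stromal markers in the 5 Sca-1- libraries, each divided by its mean over those libraries (all as percent of counts). Library 16 is lowest for each line of the left panel, library 16 is highest in the middle panel, and library 8 is highest and 14 lowest in the right panel. Most counts of the stromal list were of Col1a1 and Col1a2.

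The genes were also counted against the megakaryocyte markers. Per 1000 summed megakaryocyte marker counts, Tbxas1 had 1.13 to 19.9 counts in Sca-1+ and 9.93 to 14.95 in Sca-1- libraries, and the ranges overlapped. Alox12 had 988 to 1926 counts in Sca-1+ and 90.2 to 125 in Sca-1-, Ptgs1 had 1750 to 3823 and 9.12 to 12.5, and Pla2g4a had 31.1 to 47.9 and 3.81 to 6.26, with every Sca-1+ library above every Sca-1- library for each of the 3 genes. Tbxas1, on 3 to 28 counts, was within or under the Sca-1- range in 2 of 4 Sca-1+ libraries and above it in 2 of 4. Hpgd (42.4 to 169 against 0.656 to 1.64), Ptgis (12.5 to 105 against 0.144 to 1.37) and Ptges (139 to 340 against 0.00433 to 0.0825) were above it in each. Like those of Tbxas1, the ranges of Alox5ap (8.33 to 106 against 5.14 to 10.5) and Alox5 (0 to 53.0 against 0.741 to 9.26) overlapped. So did those of Ptgs2 (0 to 116 against 0 to 0.0451). The divisor was itself 0.00458 to 0.0110% of the counts in Sca-1+ and 2.80 to 5.57% in Sca-1- libraries. The median log2 fold change of its 14 markers was -10.1. Any gene that was less reduced in Sca-1+ than this sum is higher per marker count for that reason alone. These ratios therefore do not tell which cells the Sca-1+ reads came from, which was not tested.

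Levels of different genes were compared per kilobase of exon. In Sca-1+ cells Ptgs1 was highest at 41.8 ± 2.64 CPM per kb, then Alox12 at 21.7 ± 2.04 and Hpgd at 3.83 ± 1.63, and these 3 did not overlap. From Hpgd down (Ptges 3.62, Alox5ap 1.28, Ptgis 1.27, Ptgs2 0.423, Pla2g4a 0.393, Alox5 0.136 and Tbxas1 0.0713 CPM per kb) each gene overlapped its neighbour in the order. Of the 3 terminal synthases among these 10 genes Ptges thus had the highest mean in Sca-1+ cells and Tbxas1 the lowest. In Sca-1+ library 7, however, Ptgis was above Ptges (2.19 against 2.11 CPM per kb). The order of the lower genes changed with another choice of transcript length.

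The order was different in Sca-1- cells. Alox12 led at 1576 ± 997 CPM per kb without overlap with the next, Alox5ap at 245 ± 110, which overlapped with Ptgs1 at 161 ± 91.5. Tbxas1 (73.4), Pla2g4a (43.6), Hpgd (37.2), Alox5 (25.6) and Ptgis (13.1 CPM per kb) each overlapped the next, and Ptgs2 (0.259) and Ptges (0.220) were last and apart from them. The ratio of Alox12 to Ptgs1 per length was 0.469 to 0.593 in Sca-1+ and 8.26 to 10.7 in Sca-1- libraries. That of thromboxane synthase to prostacyclin synthase (Tbxas1 to Ptgis) was 0.0257 to 0.139 in Sca-1+ and 2.04 to 19.8 in Sca-1-, so Ptgis was above Tbxas1 in each Sca-1+ library and below it in each Sca-1- library.

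**Figure D3:**
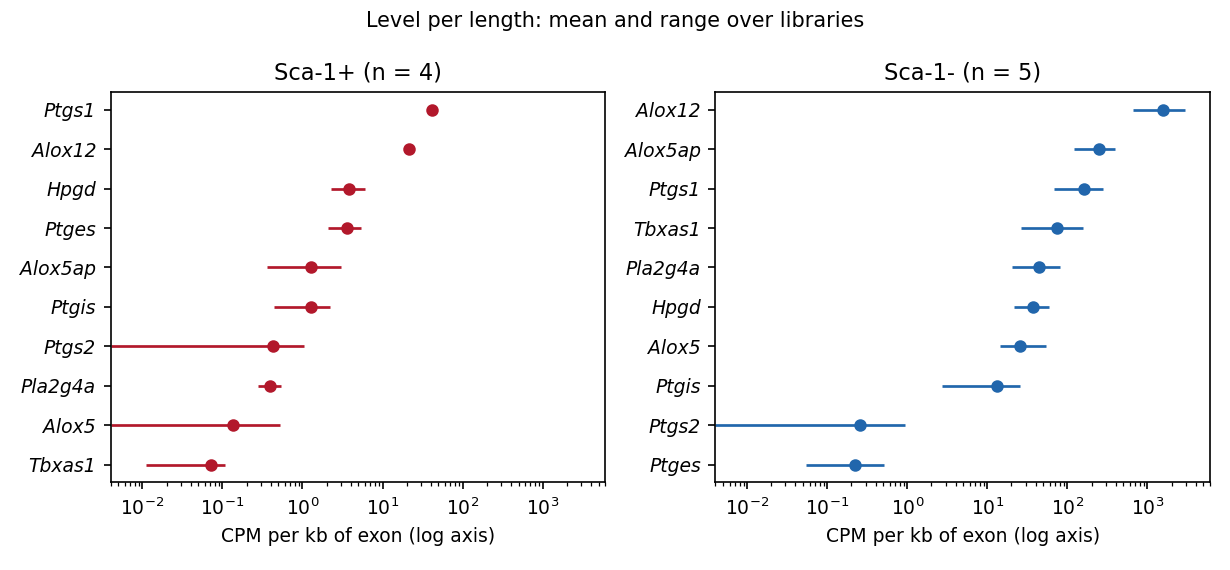
Level of each gene per kb of exon (log axis), as mean (point) and range over libraries (line), in order within each fraction; a line that reaches the left edge includes a library at 0. Ptgs1 leads in Sca-1+ at 41.8 CPM per kb and Alox12 in Sca-1- at 1576 CPM per kb, while Ptges is 4th in Sca-1+ and last in Sca-1-.

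Because most genes of the endothelial list were lower in Sca-1- cells, libraries were also scaled to the summed counts of that list. This moved the median log2 fold change of all genes to -3.31 (-4.54 when Esam was left out). The 8 genes lower in Sca-1+ stayed lower under both, and relative to that median they were -1.78 (Ptgs1) to -9.76 (Tbxas1) with Esam. Ptges, which was 3.86 above the median with Esam and 4.09 above it without, was not called under either scaling. Ptgs1 was 1.01 to 1.17% of the endothelial sum in Sca-1+ and 24.1 to 52.3% in Sca-1- libraries.

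**Figure D4:**
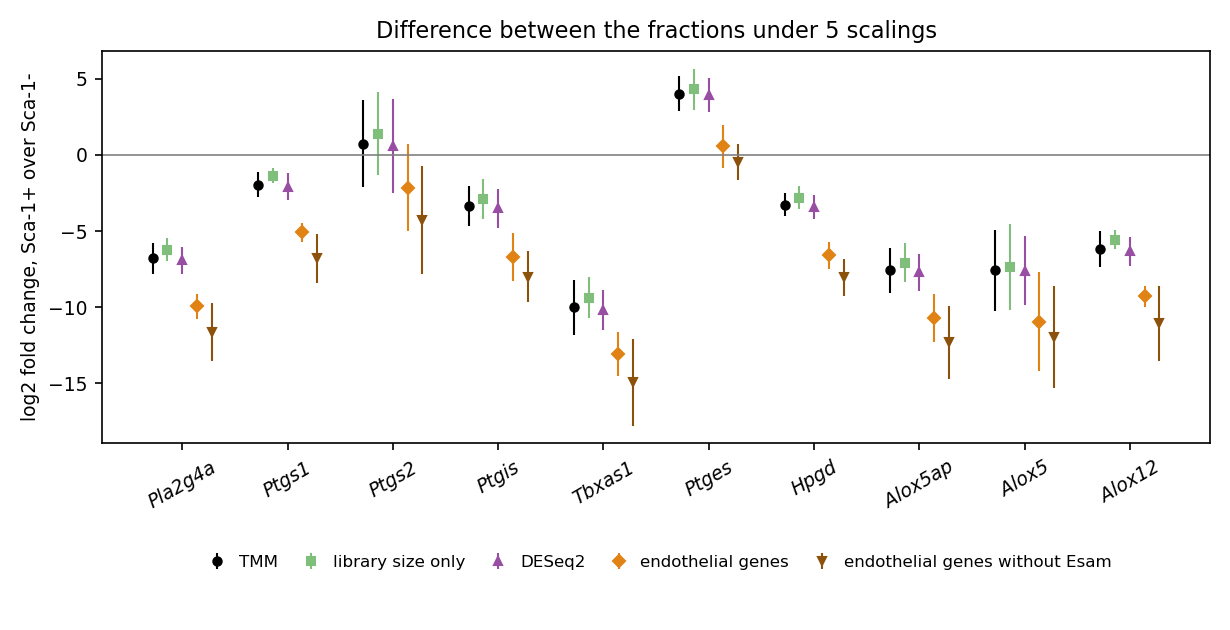
Log2 fold change of each gene (Sca-1+ over Sca-1-) with its 95% interval under 5 scalings, with 0 marked. The 8 genes that were lower are below 0 under each, and Ptges falls from 4.01 with TMM to 0.55 with endothelial scaling and -0.45 when Esam is left out of it.

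The other genes of the pathway were taken from 7 lists of 61 genes, of which 45 passed the filter, 4 had no reads in any library, and 24 passed the test, 12 with higher and 12 with lower levels in Sca-1+ cells, beside the 44.8% of all genes. Their median log2 fold change was -0.17, against 0.07 over all genes. None of the 12 higher genes was called higher under endothelial scaling.

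Upstream of the cyclooxygenases, 16 other phospholipases A2 were examined and 7 tested, with 3 lower, 4 that did not pass and a median of -1.92. Pla2g10, a secreted enzyme, had at most 2 counts in any Sca-1+ library and 15.3 ± 10.8 CPM in Sca-1- libraries, at least 144-fold lower in Sca-1+ (adjusted p = 1.25e-04). Pla2g12a was 36.5 ± 7.54 against 337 ± 156 CPM, with a log2 fold change of -3.21 (SE 0.38, adjusted p = 1.43e-04). The remaining one that was lower, Pla2g5, was named after its values were seen and was 0.0598 ± 0.0804 against 2.37 ± 1.80 CPM.

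The other prostanoid synthases numbered 7, of which 5 were tested and 2 were higher in Sca-1+ cells. Fam213b, which encodes prostamide and prostaglandin F synthase, was 28.6 ± 7.89 against 3.03 ± 1.28 CPM, with a log2 fold change of 3.23 (SE 0.44, adjusted p = 2.91e-04). Cbr1, a carbonyl reductase that acts on prostaglandin E2, was 44.0 ± 6.71 against 20.5 ± 9.18 CPM (log2 fold change 1.10, SE 0.34, adjusted p = 0.0226), a call that was lost without Sca-1+ library 7 (adjusted p = 0.0559) or 15 (0.0619). Endothelial scaling turned both, to -0.26 and -2.43, which was 3.04 and 0.88 above the median of all genes under that scaling. The constitutive prostaglandin E synthases Ptges2 and Ptges3 did not pass the test, at 39.0 ± 4.41 against 36.4 ± 17.4 CPM and 27.6 ± 4.38 against 33.2 ± 9.09 CPM, in contrast to Ptges.

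Among 4 genes of prostaglandin breakdown and transport, Slco2a1, which encodes the prostaglandin transporter that takes prostaglandins up for inactivation, was 106, 63.1, 70.5 and 42.8 CPM in Sca-1+ and 1.26, 0.419, 2.88, 4.38 and 3.25 CPM in Sca-1- libraries. It was 28.4-fold higher in Sca-1+ (log2 fold change 4.83, SE 0.58, adjusted p = 1.51e-04), and 1.23 with endothelial scaling, 4.54 above the median of all genes, where it did not pass. The transporter and Hpgd, the enzyme that works behind it, thus had differences of opposite sign with TMM. Ptgr1, prostaglandin reductase, was 2.55 ± 0.791 against 8.22 ± 3.92 CPM (log2 fold change -1.69, adjusted p = 0.0131), and the remaining 2 genes did not pass.

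Leukotriene A4, the product of 5-lipoxygenase, is used by Ltc4s and Lta4h. Ltc4s, leukotriene C4 synthase, was 69.7, 86.5, 72.9 and 24.1 CPM in Sca-1+ and 3.18 to 5.64 CPM in Sca-1- libraries. It was 15.5-fold higher in Sca-1+ (log2 fold change 3.96, SE 0.38, adjusted p = 4.87e-05), whereas Alox5 and Alox5ap, which act before it, were lower. With endothelial scaling Ltc4s was 0.49, above the median of all genes (-3.31), and did not pass, and without Esam it was -0.64.

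Lta4h, leukotriene A4 hydrolase, which was named after its values were seen, was 183 ± 13.2 against 100 ± 29.0 CPM (log2 fold change 0.86, adjusted p = 0.0142), and Mgst3 was 71.9 ± 11.7 against 39.4 ± 9.89 CPM (0.87, adjusted p = 0.0116). Endothelial scaling turned both, to -2.60 and -2.48, still 0.71 and 0.83 above the median of all genes. Alox15, 12/15-lipoxygenase, was 0.0340, 0, 0 and 1.04 CPM in Sca-1+ and 6.54, 16.1, 46.1, 275 and 5.65 CPM in Sca-1- libraries (log2 fold change -8.05, SE 1.85, adjusted p = 0.00542). As a share of the counts it was highest in libraries 16, 14 and 10, in that order, as were the mast cell and basophil markers. The place of library 10 among those markers rested on Gata2, which had 26144 counts there, with Prss34 next at 2024. The part of such cells in Alox15 was not tested. Without Sca-1+ library 19 Alox15 was at the floor and at least 682-fold lower. Of the 10 genes tested in this list of 13, 3 were higher and 2 were lower, the other one being Alox12e, named after its values were seen, at 0.103 ± 0.146 against 3.22 ± 4.92 CPM.

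Receptors were compared for the same mediators. Ptgir, the prostacyclin receptor, was 1.46, 0.0340, 1.14 and 1.74 CPM in Sca-1+ and 198, 461, 80.7, 55.9 and 56.9 CPM in Sca-1- libraries, 156-fold lower in Sca-1+ (log2 fold change -7.28, SE 1.10, adjusted p = 5.20e-04). As a share of the counts it was highest in libraries 10, 8 and 14, in that order, as were the megakaryocyte markers. Tbxa2r, the thromboxane receptor, was 32.3, 30.1, 29.8 and 13.05 CPM in Sca-1+ and 44.1, 63.0, 49.6, 17.4 and 37.0 CPM in Sca-1- libraries and did not pass the test (log2 fold change -0.68, SE 0.38, 95% interval -1.43 to 0.07, adjusted p = 0.175). It passed without Sca-1- library 16 (-0.88, adjusted p = 0.0452).

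Ptger3, a prostaglandin E2 receptor, was 1.69 ± 1.37 against 57.5 ± 11.9 CPM (log2 fold change -5.09, SE 0.57, adjusted p = 1.04e-04). Ptger1 was 16.8 ± 3.63 against 9.40 ± 2.98 CPM (0.84, adjusted p = 0.0448), a call that was lost when any of 7 of the 9 libraries was left out and that turned to -2.62 with endothelial scaling, 0.69 above the median of all genes. Of 8 prostanoid receptors tested out of 9, 1 was higher, 2 were lower and 5 did not pass, with a median of -0.43.

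Of 5 leukotriene receptors 4 were tested and 3 were lower, with a median of -5.00. Cysltr2, a receptor for cysteinyl leukotrienes, was 0.468 ± 0.272 against 61.8 ± 43.7 CPM (log2 fold change -7.02, SE 0.78, adjusted p = 9.76e-05). The leukotriene B4 receptors Ltb4r1 and Ltb4r2 were 0.319 ± 0.257 against 12.7 ± 5.72 CPM (-5.31, adjusted p = 1.78e-04) and 0.307 ± 0.355 against 8.18 ± 4.23 CPM (-4.70, adjusted p = 0.00259). Cysltr1 did not pass the test, at 2.59 to 35.8 CPM in Sca-1+ and 0 to 4.11 CPM in Sca-1- libraries.

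Genes of the cytochrome P450 and epoxide hydrolase branch went the other way with TMM, as 5 of 7 were higher in Sca-1+ and 1 was lower, with a median of 2.20. Cyp2j9 was 28.6 ± 7.97 against 0.680 ± 0.739 CPM (log2 fold change 5.34, SE 0.99, adjusted p = 0.00166) and Cyp2j6 59.9 ± 5.62 against 4.76 ± 3.08 CPM (3.65, SE 0.52, adjusted p = 3.76e-04), and with endothelial scaling, 5.10 and 3.48 above the median of all genes, neither passed. Ephx1, Cyp4f13 and Cyp4f16, named after their values were seen, were 217 ± 61.9 against 22.9 ± 11.8, 32.9 ± 6.67 against 8.99 ± 4.49 and 31.7 ± 5.70 against 6.90 ± 2.11 CPM. The 1 lower gene, Cyp4f18, an enzyme that inactivates leukotriene B4, was 652 CPM in Sca-1- library 16 and 23.9 to 102 CPM in the others, against 0.749 ± 1.41 CPM in Sca-1+ (log2 fold change -7.86, SE 1.81, adjusted p = 0.00543). Without Sca-1+ library 19 it was at the floor and at least 1678-fold lower.

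**Figure D5:**
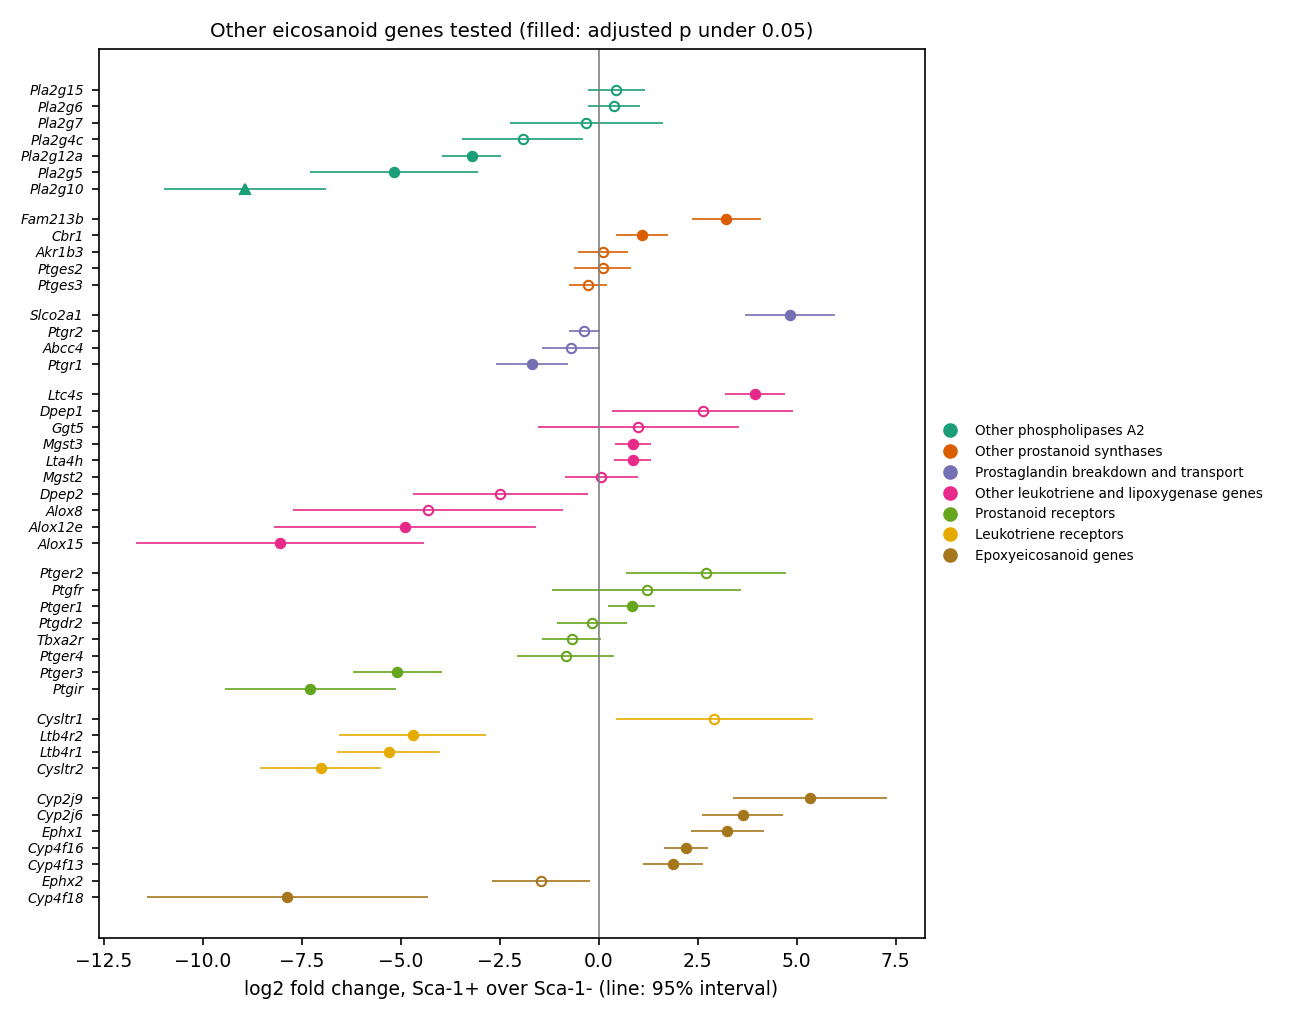
Log2 fold change (Sca-1+ over Sca-1-, TMM) with its 95% interval for the 45 other eicosanoid genes tested, by list; filled symbols passed the test and the triangle is Pla2g10, which was at the floor in every Sca-1+ library. Of them 12 were higher and 12 lower, and none of the 12 was called higher with endothelial scaling.

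As a description over the 9 libraries, whose fractions shape every such value, the 2 tested genes most like each member in log2 CPM were found by Pearson correlation. For Tbxas1 they were P2rx1, a platelet ATP receptor (r = 0.999), and Syk, a kinase of platelet and immune receptors (0.997). For Pla2g4a they were Cdk6 and Tubb1, the tubulin of platelets (both 0.998), and for Alox12 Smim3 (0.9998) and Cyp2b10 (0.999). Alox5 was most like F630028O10Rik (0.993) and Rac2 (0.991), a small GTPase of blood cells. Ptges was most like Mospd2 and Nrp1 (both 0.986), of which Nrp1 encodes a VEGF co-receptor, and Hpgd like Hist1h4i (0.989) and Cysltr2 (0.988). Ptgs1 was most like Akirin2 and RP23-454A14.10 (both 0.998), Alox5ap like WI1-1993I8.1 (0.998), and Ptgs2, at 0 counts in 2 of the 9 libraries, like Smg5 (0.924) and Zfp941 (0.916). For Alox12, Pla2g4a and Tbxas1 the number of genes above 0.99 was 173, 104 and 54, so the genes named are among many.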

How the data were processed

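RNA-seq was performed on poly(A) RNA of sorted BM cells, with libraries made by a full-length cDNA kit from a small amount of total RNA, without molecular identifiers, so floors cover counting error only. The authors deposited whole-number read counts per gene, not normalized. STAR, featureCounts and mm10 are named in the submitters' processing notes, without versions, and the use of strand is not given in the sources used here. All 9 sample columns were used.

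The test was edgeR 4.0.16 in R 4.3.3 (filterByExpr at its minimum count 10 and minimum total 15, TMM, quasi-likelihood F-test, two-sided, Benjamini-Hochberg adjustment over all genes tested, threshold 0.05). SEs were taken from the F statistic, and 95% intervals are 1.96 SE and include the spread between libraries. Log2 CPM for correlations used a prior count of 2. A fold against a fraction with every library at or under 3 counts was computed from the mean floor. The labels do not say that libraries come from separate animals, so p-values measure the spread between these libraries, which may be technical. No library was a copy of another (chi-square over degrees of freedom 36.8 to 538 within fractions). In simulated data (15465 genes), 49.5% of 95 genes changed by 2 on the log2 scale and 82.5% of 97 changed by 4 were called, with 5 unchanged genes. With so few changed genes, beside 44.8% called in the data, the adjusted threshold is stricter there. These rates therefore do not give the power of the comparison made here.

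The members, gene lists and alternatives were chosen with earlier results of these data known. Besides the 10 members, the text names up to 3 genes of each list with the largest difference among those with an adjusted p under 0.05 and an average log2 CPM of at least 1, the receptors Ptgir and Tbxa2r in any case, the 2 genes most like each member (1 of them is not reported here), and Ly6a, Pecam1 and Ptprc as sort checks (Ptprc, which encodes CD45, was 0.841 ± 1.20 CPM in Sca-1+ and 28.8 ± 14.0 CPM in Sca-1- libraries). Alternatives changed scaling, filter, test (DESeq2 1.42.0, voom in limma 3.58.1), dispersion fit, libraries and gene length. Positions and exon lengths came from GENCODE M21 on GRCm38, the build named mm10, in which 849 of 46078 identifiers were not found. Python 3.11.15 and matplotlib 3.10.9 made the plots.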

Additional observations from a re-analysis of the deposited data

Results flagged for a closer look

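Values that stood apart from the other libraries of their fraction by Dixon's test at 95% were found in 12 of 78 groups. Chance flags about 1 in 20 where values are normally distributed and groups are independent. Some of these CPM are near 0 and the groups share libraries, so the 12 cannot be set against that rate. Ptgs1 was 177.8 CPM in Sca-1+ library 7 and 156 to 159 CPM in the others. Ptgs2 was 4.33 CPM in Sca-1- library 10 and 0 to 0.961 CPM in the others. Fam213b was 0.768 CPM in Sca-1- library 10 and 3.41 to 3.77 CPM in the others.

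Sca-1+ library 19 was apart in 6 of them. Alox5 was 2.16 CPM there and 0 to 0.0345 CPM in the other Sca-1+ libraries, Alox15 was 1.04 against 0 to 0.0340 CPM, and Cyp4f18 was 2.86 against 0 to 0.103 CPM. Tbxa2r, in contrast, was low at 13.05 CPM against 29.8 to 32.3 CPM. Granulocyte and monocyte markers made up 0.1004% of its counts against 0.0245 to 0.0294%, and mast cell and basophil markers 0.0279% against 0.0130 to 0.0155%.

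Sca-1- library 16 was apart in 3 of them. Alox15 was 275 CPM there and 5.65 to 46.1 CPM in the other Sca-1- libraries, Cyp4f18 was 652 against 23.9 to 102 CPM, and mast cell and basophil markers made up 1.64% of its counts against 0.0627 to 0.238%. With libraries 19 and 16 both left out, an alternative chosen after seeing the data, 9 of the 10 members were still called, with 8 lower and 1 higher.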

How the results depend on the processing

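With TMM, RLE, upper-quartile or library size scaling, DESeq2, voom, no filter, a robust fit and each library left out, 9 members were called, 8 lower and 1 higher. Ptgs2 was not called in any of these and turned to -0.23 without Sca-1+ library 19 (range with 1 library left out -0.23 to 2.17) and -0.29 without that library and Sca-1- library 16.

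Scaling to general endothelial genes called 13361 genes (300 higher, 13061 lower), 0 members higher, and 0 other pathway genes higher and 34 lower. Ptges was 0.55, Ptgs2 -2.15, Cbr1 -2.43, Fam213b -0.26, Mgst3 -2.48, Ptger1 -2.62 and Lta4h -2.60. Without Esam, an alternative chosen after seeing the data, it called 14483 genes (189 higher, 14294 lower), 0 members higher, and 38 other pathway genes (0 higher, 38 lower), with Ptgs2 at -4.26 (adjusted p = 0.0423, lower), Ptges -0.45, Cbr1 -3.39, Fam213b -1.31, Lta4h -3.71, Ltc4s -0.64, Mgst3 -3.83, Ptger1 -3.70 and Cyp2j6 -0.88. Under both scalings edgeR also gave 0 members and 0 other pathway genes higher at an unadjusted p under 0.05. This follows from the scaling, which lowers the median of all genes. Library size alone put that median at 0.43 and raised the share of calls that were higher from 52.1% to 63.1%.

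A replicate block of consecutive end numbers (7 and 8, 13 and 14, 15 and 16, of which 15 and 16 share another number in their labels) called 4340 genes (2265 higher, 2075 lower), 4194 of them among the 7137, 9 members as before, and 17 other pathway genes (8 higher, 9 lower) against 22 in the same 6 libraries without the block and 24 in all 9. The deviations of those pairs correlated at 0.147, 0.148 and 0.042, and those of libraries without consecutive numbers at -0.191 to 0.065. The values for 7 with 8 and 13 with 14 were thus above those of all other pairs. Whether such libraries share a mouse is not given in the labels, and the main test took them as unpaired. With fewer libraries, 33.7% of genes were called without the block and 27.3% with it. With 1 library left out, 5957 to 6969 genes were called. With the longest transcript as length, 4 of 10 members kept their place in the Sca-1+ order. Depth limits Ptgs2, Alox5 and Tbxas1, each at or under 3 counts in 1 or more Sca-1+ libraries.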
